A study of Mus musculus with 24 samples.

Results

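The genes described here are 8 members of the Nodal and BMP pathways, *Nodal*, *Lefty1*, *Lefty2*, *Smad7*, *Bmp4*, *Id1*, *Id2* and *Id3*, taken by name from the 47937 genes that both count tables of the study hold. They were chosen with earlier results of these data known. Nuclear RNA of mouse ES cells was measured in 8 RNA-seq libraries and in 16 MeRIP-seq libraries, in which RNA fragments are pulled down with an antibody against N6-methyladenosine (m6A) and sequenced beside their input. There were 2 biological replicates of each line and library kind. The study asked whether RNA of heterochromatic repeats, above all major satellite and LINE transcripts, carries methylated cytosine or m6A. It also asked what happens to this repeat RNA when the m6A writer, a complex of METTL3 and METTL14, is mutated. WT26 ES cells are wild type, of mixed 129/Sv and C57Bl6 origin. The *Mettl14* KO line is 1 clone (A10), derived from WT26 with CRISPR guides against *Mettl14* and *Mettl3*, homozygous for the *Mettl14* lesion and with the catalytic domain of *Mettl3* left intact. RBC ES cells, also of mixed 129/Sv and C57Bl6 origin, carry BirA-V5 at Rosa26 and Cre-ERT2. The *Mettl3* KO line (clone 2c4d) was made from them in another study, so it has the same origin and carries the same. All 4 lines were grown on gelatin, in serum replacement and LIF. Each knockout is compared with the line it was derived from, the *Mettl3* KO with RBC and the *Mettl14* KO with WT26. These comparisons share no library.

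Nodal and BMP4 are secreted ligands of the TGF-beta family that signal through different receptors and Smads, SMAD2 and SMAD3 for Nodal and SMAD1, SMAD5 and SMAD9 for BMP4. Lefty1 and Lefty2 are secreted inhibitors of Nodal and are themselves Nodal target genes, SMAD7 is an inhibitory Smad that acts on both branches, and the Id proteins are inhibitors of bHLH transcription factors whose genes are classical BMP targets. In serum-free culture of mouse ES cells BMP4 and its Id targets support self-renewal together with LIF, and Nodal is made by the cells themselves.

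All 8 members are protein-coding genes of GRCm38. *Lefty2* (chr1:180893108-180899103) and *Lefty1* (chr1:180935022-180938400) are neighbours on the plus strand, *Nodal* is at chr10:61417972-61425338 and *Bmp4* at chr14:46383520-46390669. *Id1* lies at chr2:152736251-152737410, *Id2* at chr12:25093799-25097140 and *Id3* at chr4:136143497-136145755. *Bmp4* overlaps the genes *Gm15217* and *Gm15222* on the other strand, and the strand setting of the counting is not given in the sources used here, so reads of *Bmp4* and of those genes may not be separated. The others overlap no annotated gene. Of the 75-base words of the *Lefty1* transcript, 11.2% also occur in *Lefty2*, and 7.21% of those of *Lefty2* occur in *Lefty1*, so a part of their reads could be assigned to either gene.

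To show where m6A could lie in these transcripts, the pentamer GGACT, a common form of the m6A consensus, was searched on the sense strand of the longest coding transcript of each member. Each of the 8 held it, as did 87.6% of 21901 protein-coding genes. *Bmp4* held 5 copies, *Nodal*, *Smad7* and *Id2* 4 each, *Id1*, *Id3* and *Lefty2* 3 each, and *Lefty1* 2. Per kb of transcript this was 2.59 for *Id1*, 2.42 for *Bmp4*, 2.35 for *Id3*, 2.03 for *Id2*, 1.91 for *Nodal*, 1.23 for *Lefty1*, 1.21 for *Lefty2* and 0.94 for *Smad7*, against a median of 1.01 over all coding genes. The copies below are GRCm38 sequence read 5′ to 3′ on the strand of the gene, with the pentamer in capitals. Those of *Nodal* and *Bmp4*, and those of the *Lefty* genes, start at the same distance from the stop codon. Those of *Id1* and *Id2* start at nearby distances, and a copy of *Id3* is put beside them. Apart from the *Lefty* copies the sequences were not compared, so a like distance does not show a shared site.
Nodal, coding exon: ttccaggtGGACTtcaacctg
Bmp4, coding exon: ctatacgtGGACTtcagtgac
Lefty1, coding exons: gacctcaaGGACTatggagct
Lefty2, coding exons: gacctcaaGGACTacggagct
Id1, coding exon: gaggccggGGACTgcctgtcc
Id2, coding exon: atcgccctGGACTcgcatccc
Id3, 3′ untranslated: ggaccctgGGACTctgggacc

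The site of *Nodal* (chr10:61423560-61423580, plus strand) and that of *Bmp4* (chr14:46384129-46384149, minus strand) both start at position -282, counted from the end of the stop codon. The sites of *Lefty1* (from 180937238 to 180937615 of chromosome 1) and *Lefty2* (from 180894825 to 180897453) both start at -372, span an exon junction, and differ at 1 of 21 bases. *Id1* (chr2:152736675-152736695, plus strand) and *Id2* (chr12:25095762-25095782, minus strand) have theirs at -164 and -168. *Id3* held no copy in its coding part, and the copy printed starts at position 61 after it (chr4:136144909-136144929, plus strand). The counts are per gene, so they do not tell which copies were methylated.

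**Figure D1:**
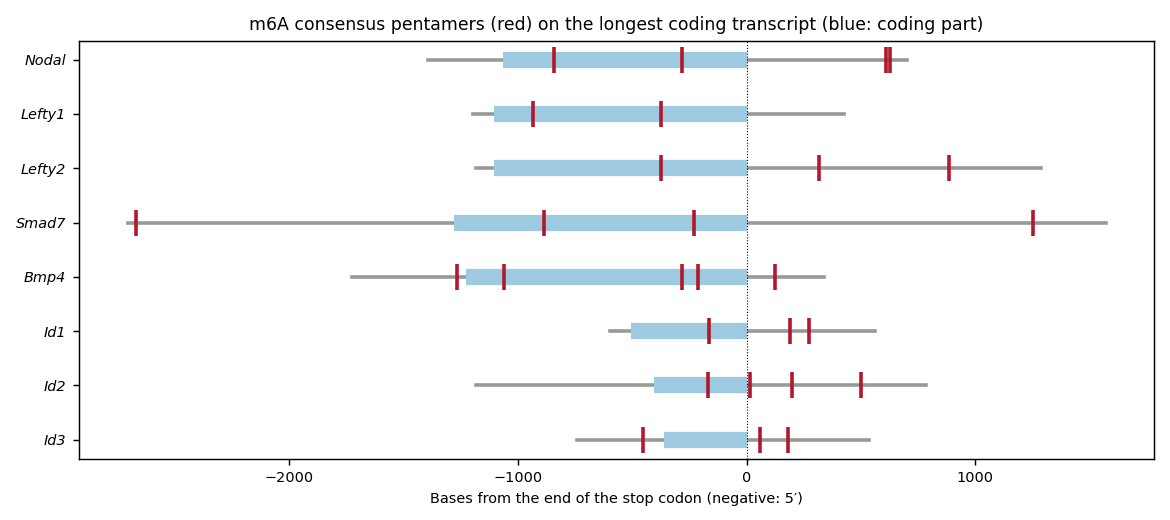
Positions of the m6A consensus pentamer (red ticks) on the longest coding transcript of each member, in bases from the end of the stop codon; the blue bar is the coding part and the grey line the untranslated parts. All but *Lefty1*, which has both of its copies in the coding part, have copies on both sides of the stop codon, and *Id3* has none in the coding part.

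RNA-seq totals were 11321459 to 13743181 counts per library, MeRIP-seq totals 9394163 to 22366463 for input and 10828364 to 28441282 for IP. In MeRIP-seq replicate 1 was sequenced more deeply (19302923 to 28441282) than replicate 2 (9394163 to 16239506) in each line. The 2 RBC libraries of the RNA-seq differed more from each other than the replicates of other lines did (chi-square per degree of freedom 39.8, against 2.95 to 6.31), and results on them are given without either where that changed a call. Counts were divided by size factors, and log2 fold changes with their standard errors come from edgeR's quasi-likelihood test over all libraries of a table. In RNA-seq a gene changed where the Benjamini-Hochberg adjusted p was at most 0.05, and it was called where its log2 fold change was also above 1 in size. The targeted genes themselves were little altered: *Mettl14* was at 400.6 and 357.5 normalized counts in WT26 and at 296.5 and 315.6 in the *Mettl14* KO (log2 -0.31 ± 0.0872 (SE), adjusted p = 0.00607), and *Mettl3* at 927.7 and 978.9 in RBC and 880.0 and 820.9 in the *Mettl3* KO (-0.16 ± 0.0707, adjusted p = 0.0587). A lesion that leaves the transcript standing is not seen in such counts, so they do not check the labels. Of 12 ES cell markers, 12 fell in the *Mettl14* KO by adjusted p (median log2 -0.55), beside 4592 of 17022 genes, and none was called. In the *Mettl3* KO 10 fell, beside 4782 genes, and 2 rose (median -0.38), and *Dppa5a* (-2.03) and *Tdgf1* (-1.32) were called lower. The 12 summed to 43485.4 to 44568.5 normalized counts in WT26 and 30424.6 to 30597.4 in the *Mettl14* KO. The sums were 38903.3 to 39242.0 in RBC and 24330.5 to 24926.2 in the *Mettl3* KO. The sum was thus lower in each knockout than in its control, and the highest of the marker lists in every library.

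In RNA-seq the *Lefty* genes rose and *Id1*, *Nodal* and *Bmp4* fell in both knockouts. *Lefty1* and *Lefty2*, the Nodal inhibitors, had the largest increases of the 8, and *Id1*, a BMP target, the largest decrease. *Smad7* moved in opposite directions in the 2 knockouts, *Id3* fell in the *Mettl14* KO, and *Id2* was near the detection limit. In the *Mettl14* KO 2 members were called higher and 2 lower, where 14.5% of 17022 tested genes were called. The *Mettl3* KO again had 2 higher and 2 lower, where 13.6% were called, and these 4 calls held without either RBC library. By adjusted p alone 7 of the 8 changed in the *Mettl14* KO (52.5% of all genes) and 6 in the *Mettl3* KO (53.4%). As the 8 were chosen with earlier results of these data known, these counts beside the shares are no test of the pathways. All 8 passed the filter on low counts. The median log2 fold change of the 8 was -0.48 in the *Mettl14* KO and -0.31 in the *Mettl3* KO, against 0.00 over all genes in each, which the size factors put near 0. These are bulk samples, in which fewer cells of a type and less RNA per cell cannot be told apart, and with p-values that measure the spread between cultures of 1 clone or line.

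*Nodal* was at 931.4 and 969.5 normalized counts in WT26, 676.0 and 752.1 in the *Mettl14* KO, 1097.8 and 1125.8 in RBC against 673.1 and 677.9 in the *Mettl3* KO. Both controls lay above both knockouts with no overlap. The log2 fold change was -0.41 ± 0.0649 (adjusted p = 3.78e-05) in the *Mettl14* KO and -0.72 ± 0.0646 (adjusted p = 4.15e-08) in the *Mettl3* KO. *Nodal* thus fell in both by less than the 2-fold limit of a call, and it was, per kb of exon, the most abundant member in WT26, the *Mettl14* KO and RBC (454, 341 and 531 normalized counts per kb), while in the *Mettl3* KO *Lefty1* stood above it (608 against 322).

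*Lefty1* was at 29.8 and 22.5 normalized counts in WT26 and rose to 218.3 and 230.9 in the *Mettl14* KO. It was at 125.3 and 150.8 in RBC and rose to 1029.6 and 1106.0 in the *Mettl3* KO. The 4 lines did not overlap, and each knockout lay above its own control. The increase was 8.45-fold in the *Mettl14* KO (log2 3.08 ± 0.155, adjusted p = 2.82e-11) and 7.69-fold in the *Mettl3* KO (2.94 ± 0.0978, adjusted p = 1.08e-13). The controls themselves differed, RBC being above WT26 by 2.38 ± 0.171 on the log2 scale (adjusted p = 5.14e-09), so the level in RBC was nearer to that of the *Mettl14* KO than to that of WT26. The difference between the increases of the 2 knockouts was -0.14 ± 0.204 (adjusted p = 0.628).

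*Lefty2* stood at 42.5 and 42.9 normalized counts in WT26, 198.3 and 207.5 in the *Mettl14* KO, 218.4 and 189.3 in RBC against 547.0 and 598.3 in the *Mettl3* KO. It rose 4.74-fold in the *Mettl14* KO (log2 2.25 ± 0.14) and 2.81-fold in the *Mettl3* KO (1.49 ± 0.0942). The libraries of the *Mettl14* KO and of RBC overlapped, and RBC was above WT26 by 2.25 ± 0.141 as well. Across the 8 libraries *Lefty1* and *Lefty2* had a Pearson correlation of 0.98, a description that rests on 4 lines with 2 libraries each.

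*Smad7*, the inhibitory Smad (chr18:75367529-75395935), was at 756.0 and 897.6 normalized counts in WT26 and 903.6 and 757.1 in RBC, so the controls overlapped. In the *Mettl14* KO it was lower, at 471.7 and 538.7 (log2 -0.71 ± 0.0955, adjusted p = 6.8e-06), and in the *Mettl3* KO higher, at 1060.0 and 1146.2 (0.41 ± 0.0899, adjusted p = 8.51e-04). The knockout libraries lay outside the range of the controls on either side.

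*Bmp4* was at 662.9 and 648.5 normalized counts in WT26, 460.7 and 444.2 in the *Mettl14* KO, 1092.1 and 1047.9 in RBC against 301.8 and 353.5 in the *Mettl3* KO. The lines were in the order RBC, WT26, *Mettl14* KO and *Mettl3* KO, with no overlap between neighbours. The ligand fell by 0.54 on the log2 scale in the *Mettl14* KO (SE 0.0775) and by 1.71 in the *Mettl3* KO (SE 0.0779, adjusted p = 6.67e-12), where it was called. RBC exceeded WT26 by 0.71 ± 0.0728, so the step from control to knockout began at a higher level in the *Mettl3* pair.

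*Id1* was at 172.7 and 212.6 normalized counts in WT26 and 185.1 and 167.6 in RBC, and the controls overlapped. It was at 59.1 and 61.4 in the *Mettl14* KO, 0.315 times the level of WT26 (log2 -1.67 ± 0.156, adjusted p = 7.32e-08). In the *Mettl3* KO it was at 20.9 and 24.2, 0.128 times the level of RBC (-2.97 ± 0.189, adjusted p = 5.05e-10). *Id1* was the member that fell the most in both knockouts.

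*Id3* was at 78.7 and 89.1 normalized counts in WT26 and fell to 37.1 and 25.3 in the *Mettl14* KO (log2 -1.42 ± 0.266, adjusted p = 2.21e-04). RBC was at 63.2 and 62.1, and the *Mettl3* KO at 43.5 and 80.6, with 1 library below and 1 above the control (-0.04 ± 0.248, adjusted p = 0.916). *Id2* had 6.3 and 4.3 normalized counts in WT26, 4.0 and 6.8 in the *Mettl14* KO, 20.7 and 10.8 in RBC against 10.4 and 10.1 in the *Mettl3* KO. Neither knockout passed the test for *Id2* (0.01 ± 0.627 and -0.58 ± 0.434), and at these counts a difference of the size seen in *Id1* or *Id3* could be measured only with a large error. Per kb of exon *Id2* was the lowest member in every line, at 2.17 to 6.46 normalized counts.

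**Figure D2:**
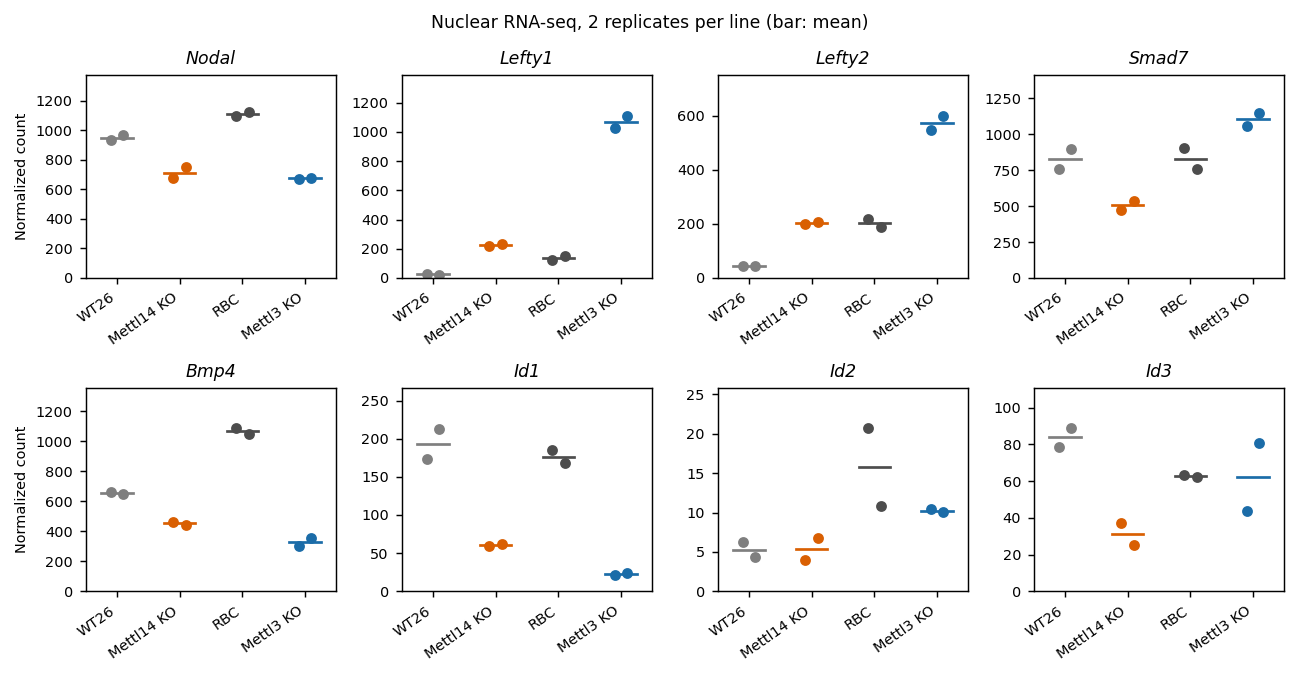
Normalized counts of the 8 members in nuclear RNA-seq, 1 panel per gene with its own axis from 0, points for the 2 replicates of each line and a bar for their mean. Both *Lefty* genes are higher and *Id1*, *Nodal* and *Bmp4* lower in each knockout than in its control, and *Smad7* is lower in the *Mettl14* KO and higher in the *Mettl3* KO.

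The 2 controls differed in part of these genes. Between RBC and WT26 3 members were called, *Lefty1*, *Lefty2* and *Id2*, all higher in RBC, where 8.92% of the genes were called. For *Id2* the call (log2 1.5 ± 0.505, adjusted p = 0.0251) was lost without RBC replicate 1 (0.99, adjusted p = 0.283), without either WT26 replicate and with DESeq2. In the test of the difference between the knockout effects, *Mettl3* KO less *Mettl14* KO, *Smad7* (1.12 ± 0.131) and *Id3* (1.39 ± 0.366) were called higher and *Bmp4* (-1.17 ± 0.11) and *Id1* (-1.30 ± 0.264) lower, where 13.9% of the genes were called. By adjusted p alone 6 of the 8 passed, beside 43.1% of the genes. That of *Id3* came to 0.90 (adjusted p = 0.04) without *Mettl3* KO replicate 2, and that of *Smad7* to 0.99 without RBC replicate 2 and to 1.0 without WT26 replicate 2, below the fold limit.

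The input libraries of the MeRIP-seq are a second measurement of RNA level in the same lines, with a wider spread between replicates. *Lefty1* was at 19.6 and 13.6 normalized counts in the WT26 input, 114.8 and 120.0 in the *Mettl14* KO, 43.8 and 95.9 in RBC against 446.9 and 240.9 in the *Mettl3* KO. *Id1* was at 114.7 and 84.8 in WT26, 26.9 and 35.8 in the *Mettl14* KO, 93.3 and 31.6 in RBC against 11.8 and 11.2 in the *Mettl3* KO. For both genes the knockout libraries lay outside the range of their control. The log2 fold changes in input were 2.77 ± 0.614 and 2.31 ± 0.543 for *Lefty1*, 2.24 ± 0.5 and 1.67 ± 0.46 for *Lefty2*, and -1.71 ± 0.51 and -2.43 ± 0.566 for *Id1*, each given for the *Mettl14* KO first. *Bmp4* was at 0.00 ± 0.548 in the *Mettl14* KO and at -1.58 ± 0.562 in the *Mettl3* KO.

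None of the 8 passed the threshold in input, with the lowest adjusted p at 0.0699 in the *Mettl14* KO and 0.0686 in the *Mettl3* KO by edgeR, where 0.396% and 0.744% of 22700 features were called. At an unadjusted p under 0.05 there were 3 and 4 members (10.5% and 11.6% of all features), and DESeq2 called 2 and 3 (1.7% and 1.89%). With the replicate number as a block, set apart for input and IP because same-numbered libraries deviated together, 3 members were called in the *Mettl14* KO, *Lefty1* (adjusted p = 0.0132), *Lefty2* (0.0133) and *Id1* (0.0247), and 4 in the *Mettl3* KO, *Lefty1* (0.00811), *Lefty2* (0.0203), *Bmp4* (0.00311) and *Id1* (0.00939), where it called 3.75% and 4.26% of all features. This block was chosen after the data were seen.

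**Figure D3:**
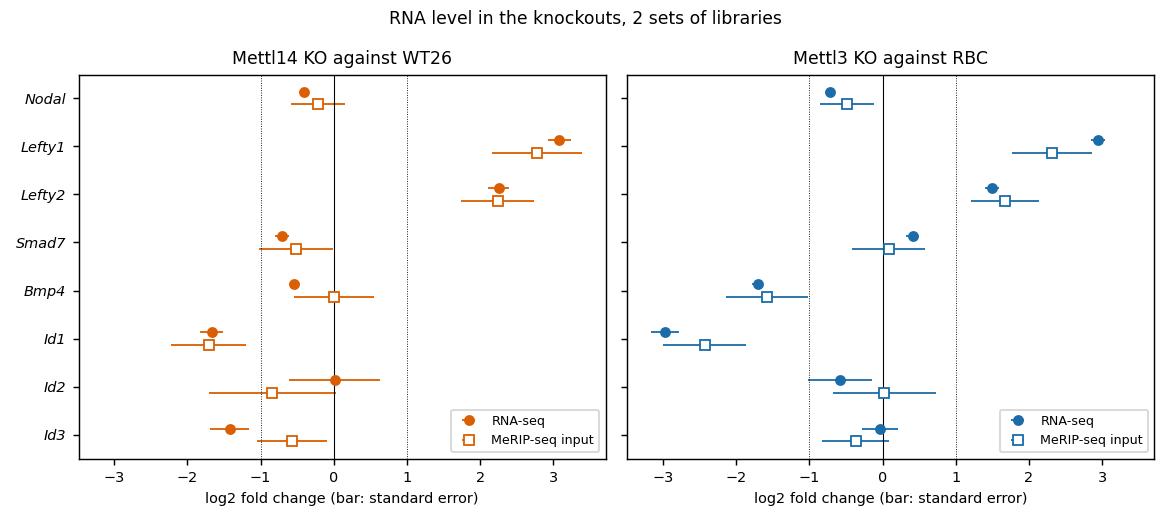
Log2 fold change of the 8 members in each knockout against its own control, from RNA-seq (filled circles) and from MeRIP-seq input (open squares), with bars for 1 standard error and dotted lines at 1 and -1. Apart from *Bmp4* in the *Mettl14* KO and *Id2*, each member is on the same side of 0 in both sets of libraries. The bars of the input are longer for each gene. Among those of the same side, the input bars of *Nodal* in the *Mettl14* KO and of *Smad7* and *Id3* in the *Mettl3* KO cross 0.

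The m6A antibody enriched 5 of the 8 members in each control line, with *Nodal* and *Bmp4* between 2.13 and 2.35 on the log2 scale of IP over input. A feature was called enriched where the adjusted p was at most 0.05 and the log2 ratio above 1. In WT26 these were *Nodal*, *Smad7*, *Bmp4*, *Id1* and *Id3* (14.5% of all features were enriched), and in RBC *Nodal*, *Lefty1*, *Smad7*, *Bmp4* and *Id1* (13.3%). The *Mettl14* KO had 4 enriched members, *Nodal*, *Smad7*, *Bmp4* and *Id1* (11.9%), and the *Mettl3* KO only *Nodal* (2.51%). On the log2 scale the fitted ratio of IP to input was above 0 for every member in every line, with medians of 1.54 in WT26, 1.52 in the *Mettl14* KO, 1.54 in RBC and 1.08 in the *Mettl3* KO, against 0.00 to 0.04 over all features. The size factors put the median over all features near 0, so these ratios are relative to the typical feature.

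The ligands had the highest ratios. *Nodal* stood, in replicates 1 and 2, at log2 ratios of 1.84 and 2.81 in WT26, 1.76 and 2.96 in the *Mettl14* KO, 1.65 and 2.67 in RBC against 1.12 and 2.05 in the *Mettl3* KO. *Bmp4* stood at 1.53 and 2.84, 1.66 and 2.77, 1.56 and 2.84, and 1.23 and 1.92 in the same order of lines. For both genes the range of the *Mettl3* KO overlapped that of RBC, and replicate 2 was above replicate 1 in each of the 4 lines. Between same-numbered replicates both were lower in the *Mettl3* KO than in RBC, as were *Lefty1*, *Lefty2*, *Smad7* and *Id1*, which makes 6 of 8 members beside 35.7% of all features. In the *Mettl14* KO 2 of 8, *Id2* and *Id3*, were below WT26 in both, beside 23.8%. The fitted enrichment of *Nodal* was 2.35 ± 0.379 in WT26 (adjusted p = 0.0044), 2.46 ± 0.382 in the *Mettl14* KO (0.00443), 2.13 ± 0.376 in RBC (0.00675) and 1.55 ± 0.371 in the *Mettl3* KO (0.0335). That of *Bmp4* was 2.28 ± 0.564, 2.48 ± 0.57, 2.25 ± 0.561 and 1.63 ± 0.561, the last not past the threshold (adjusted p = 0.0964).

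*Smad7* and *Id1* were the other members called in both controls and the *Mettl14* KO. *Smad7* had log2 ratios of 1.19 and 1.94 in WT26, 1.15 and 2.23 in the *Mettl14* KO, 0.99 and 2.17 in RBC against 0.59 and 1.27 in the *Mettl3* KO. *Id1* had 1.26 and 1.75, 1.49 and 2.46, 1.15 and 2.31, and 1.01 and 1.35. Here too replicate 2, the less deeply sequenced, was the higher in 4 of 4 lines, and its part in the level was not tested. Neither passed the threshold in the *Mettl3* KO (*Smad7* 0.94 ± 0.501, adjusted p = 0.252, and *Id1* 1.23 ± 0.58, adjusted p = 0.201), and *Id1* had there 11.8 and 11.2 normalized counts of input.

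The *Lefty* genes were less enriched. *Lefty1* had log2 ratios of 0.40 and 1.34 in WT26, 0.83 and 1.36 in the *Mettl14* KO, 1.10 and 1.65 in RBC against 0.82 and 0.77 in the *Mettl3* KO. *Lefty2* had 0.25 and 0.75, 0.72 and 0.59, 0.52 and 1.56, and 0.27 and 0.20. Both were thus lower in the *Mettl3* KO than in each RBC replicate. The fitted values of *Lefty2* ran from 0.24 ± 0.435 in the *Mettl3* KO to 1.08 ± 0.456 in RBC, and none passed the threshold.

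*Id3* was the member with the lowest ratio in the *Mettl14* KO, 0.07 and 0.05, against 1.05 and 1.57 in WT26, 0.82 and 0.93 in RBC, and 0.97 and 0.81 in the *Mettl3* KO. Its *Mettl14* KO libraries lay below those of the other lines, at input counts of 14.3 and 31.6. *Id2* had 1.55 and 1.28 in WT26, 0.37 and 1.02 in the *Mettl14* KO, 0.94 and 2.06 in RBC against 1.0 and 1.23 in the *Mettl3* KO, from no more than 10.1 normalized counts of input in any library. Its ratios are therefore the least certain of the 8, and it was not called in any line.

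Input and IP of a replicate are aliquots of the same RNA, and with each such pair as a replicate block a few calls near the threshold changed. *Lefty1* was then enriched in the *Mettl14* KO too (1.09, adjusted p = 0.0276), *Lefty2* (1.04, 0.0327) and *Id2* (1.52, 0.0498) were added in RBC, and *Nodal* in the *Mettl3* KO missed the threshold (1.58, 0.0607), which left 0 members enriched there. The block on the replicate number set apart for input and IP gave *Nodal* (1.59, adjusted p = 2.38e-05) and *Bmp4* (1.59, 5.35e-04) in the *Mettl3* KO. Without replicate 2 of a line, no member and no other feature was called enriched in that line, and without *Mettl3* KO replicate 1 none was called in the *Mettl3* KO either. A line is then down to 1 pair of libraries, whose spread is taken from the other lines. Without WT26 replicate 1, 2 members were called in WT26.

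**Figure D4:**
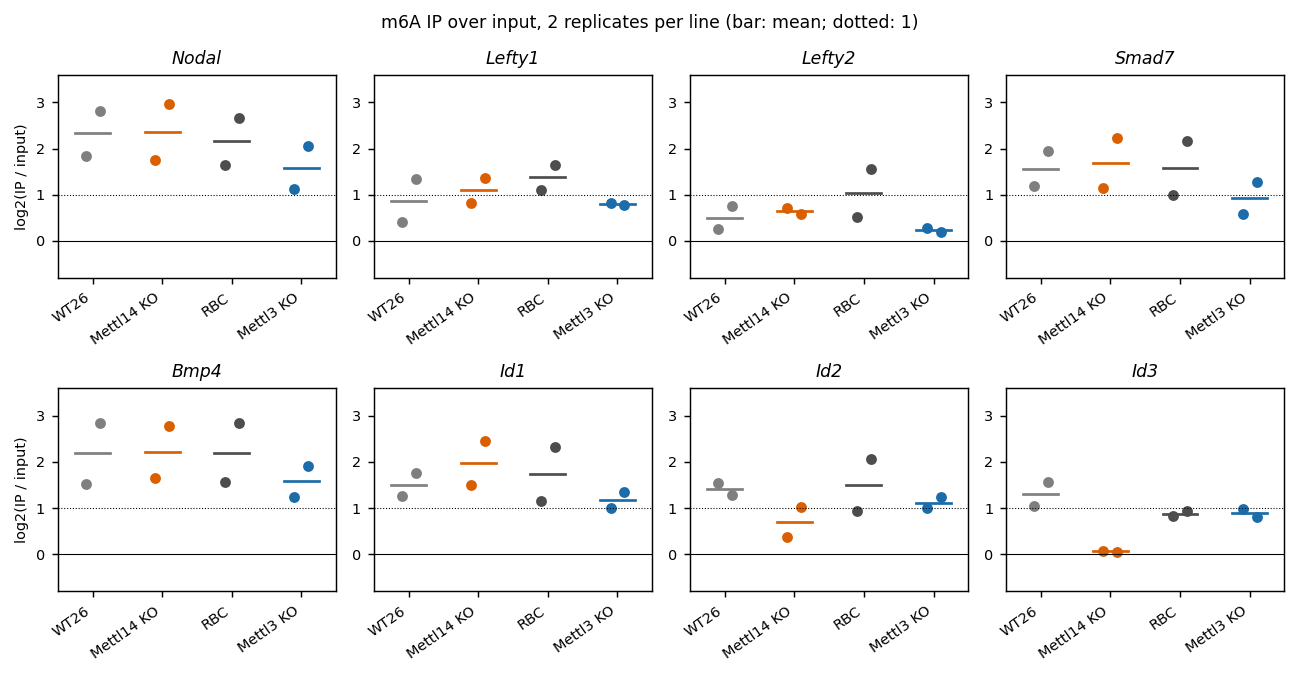
Log2 ratio of normalized IP to input counts for the 8 members, 1 panel per gene, with points for replicates 1 (left) and 2 (right) of each line, a bar for their mean, a solid line at 0 and a dotted line at 1. The means of the *Mettl3* KO are below those of RBC for 7 of the 8 members, and the points of most members overlap between the lines.

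Whether the enrichment itself changed in a knockout was tested as the difference of IP over input between knockout and control. No member passed the threshold. The differences ran in the *Mettl14* KO from -1.21 ± 0.645 for *Id3* to 0.67 ± 0.674 for *Id1*, with a median of 0.18 and 6 of 8 above 0. Those of the *Mettl3* KO ran from -0.84 ± 0.628 for *Lefty2* to 0.03 ± 0.603 for *Id3*, with a median of -0.60 and 7 of 8 below 0, against a median of 0.01 over all features. That median is set near 0 by the size factors, so a change of enrichment shared by most features would not be seen. *Nodal* was at 0.11 ± 0.513 and -0.59 ± 0.513, *Smad7* at 0.30 ± 0.706 and -0.79 ± 0.704, and *Bmp4* at 0.20 ± 0.766 and -0.61 ± 0.77 in the *Mettl14* and *Mettl3* KO. With the replicate number as a block, set apart for input and IP, the lowest adjusted p of a member was 0.246, for *Nodal* in the *Mettl3* KO.

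Over all features 0% of the features passed in either knockout by edgeR without a block. In that fit 125 features were at an unadjusted p under 0.05 in the *Mettl14* KO and 794 in the *Mettl3* KO, none of them a member. DESeq2 called 1 and 0. With the replicate number as a block, set apart for input and IP, edgeR put 357 and 4573 features at an unadjusted p under 0.05 and called 1 and 0. The number of features at that limit thus depended on the block. The enrichment in RBC against WT26 (0% called, 136 features at an unadjusted p under 0.05, members from -0.41 to 0.66) and the difference between the knockouts' changes (0% called, 219 features, members from -1.09 to 1.23) gave no member either, and DESeq2 called 0 in both. With 2 replicates per line, an adjusted p that misses the threshold does not show that the enrichment was the same.

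The other genes of the 2 pathways were taken from lists of 76 genes by role, of which 51 had enough counts to be tested in RNA-seq. Of these, 4 were called higher and 3 lower in the *Mettl14* KO and 3 higher and 5 lower in the *Mettl3* KO, which is 13.7% and 15.7% of 51, near the 14.5% and 13.6% of all genes. The medians were 0.13 and 0.06 on the log2 scale. None of the 4 ligands tested beside Nodal was called in either knockout, with *Gdf3* and *Inhbb*, a Nodal-related ligand and the subunit of Activin B, being the most abundant (1942.5 and 2089.3, and 2855.8 and 3138.2 normalized counts in WT26).

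Among Nodal receptors and co-receptors, *Tdgf1* (Cripto), the co-receptor of Nodal, was at 10308.1 and 10744.6 normalized counts in RBC and fell to 4058.4 and 4391.6 in the *Mettl3* KO (log2 -1.32 ± 0.0577). Its value in the *Mettl14* KO was -0.63 ± 0.0567, below the fold limit. *Tgfbr2*, the type II receptor of TGF-beta, fell by 1.05 in the *Mettl3* KO, and was called in the test of the difference between the knockouts (-1.41). Of the proconvertases that cleave pro-Nodal, *Furin* rose (1.27 ± 0.134) and *Pcsk6* fell (-1.10 ± 0.06) in the *Mettl3* KO.

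Of 5 extracellular antagonists tested, only *Fst* (follistatin, an inhibitor of Activin) was called, and it fell in both knockouts. It was at 144.7 and 153.5 normalized counts in WT26 and 35.1 and 29.2 in the *Mettl14* KO (-2.21 ± 0.183), and at 69.0 and 68.0 in RBC and 27.8 and 35.3 in the *Mettl3* KO (-1.13 ± 0.208). It began lower in RBC than in WT26 (-1.12, called). The test of the difference between the knockouts called it too (1.08), the fall being smaller in the *Mettl3* KO. Of 8 Nodal target genes listed beside the *Lefty* genes, 1 was tested. *Eomes*, a T-box gene, was not called (0.46 and 0.37).

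Listed genes of the BMP branch and the Smads were called in each knockout, none of them in both. Tested were 4 BMP ligands, 8 receptors and co-receptors, 4 BMP targets and 16 Smads and intracellular modulators. Over all genes 14.5% were called in the *Mettl14* KO and 13.6% in the *Mettl3* KO. The *Mettl14* KO had *Bmp6* (1.51 ± 0.468), the type I receptor *Acvr1* (1.40 ± 0.156), *Smad9* (1.79 ± 0.538) and *Dusp9*, a BMP-induced phosphatase (1.96 ± 0.0711), higher, and *Bmp8b* (-1.61 ± 0.605) and *Gata2* (-2.64 ± 0.513) lower. The *Mettl3* KO had *Bmp7* (1.5 ± 0.157) and the inhibitory *Smad6* (1.14 ± 0.219) higher, and the receptor *Acvrl1* (-1.51 ± 0.238) lower. In the test of the difference between the knockouts, *Smad9* (-1.83, adjusted p = 0.0367), *Acvr1* (-1.47, 4.16e-05), *Dusp9* (-1.91, 1.56e-10) and *Gata2* (2.57, 0.00302) passed, and *Bmp6*, *Bmp7*, *Bmp8b*, *Smad6* and *Acvrl1* did not (adjusted p = 0.0589 to 0.641). *Bmp7* (0.93) and *Acvrl1* (-0.92) also passed by adjusted p in the *Mettl14* KO, below the fold limit. Counts were low for *Bmp6* and *Bmp8b* in WT26 (6.3 to 9.7), for *Smad9* in WT26 (5.4 and 2.1) and for *Gata2* in the *Mettl14* KO (4.0 and 1.9). Of 16 Smads and intracellular modulators, 1 was called in each knockout.

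**Figure D5:**
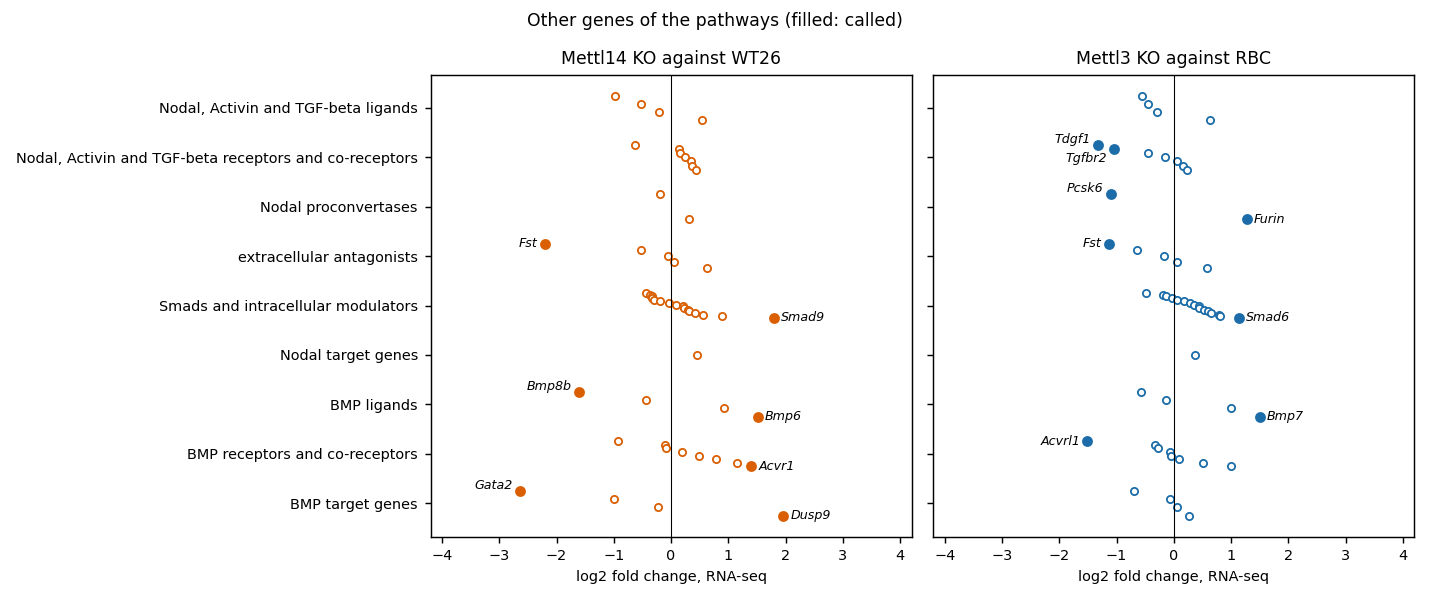
Log2 fold change in RNA-seq of the 51 tested genes of the pathway lists, 1 row per role, in the *Mettl14* KO (left) and the *Mettl3* KO (right); filled and named points were called. *Fst* is the gene called in both knockouts, lower in each.

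In MeRIP-seq 60 of the 76 listed genes were tested, and 14 were enriched in WT26, 10 in the *Mettl14* KO, 10 in RBC and 0 in the *Mettl3* KO by edgeR. This is 23.3%, 16.7%, 16.7% and 0%, beside 14.5%, 11.9%, 13.3% and 2.51% of all features. Those enriched in both control lines included the ligands *Gdf1* (2.00 and 2.31 in WT26 and RBC), *Gdf3* (1.32 and 1.38) and *Inhbb* (2.10 and 2.21), the pseudoreceptor *Bambi* (2.24 and 1.8) and the BMP co-receptor *Rgmb* (2.29 and 2.00). *Smad6*, *Ski*, *Smad1*, *Eomes* and *Tbx3* were between 1.0 and 1.52. *Gdf1* was at 0 counts in all 8 RNA-seq libraries and overlaps *Cers1* on the same strand, so its MeRIP-seq counts may belong to that gene.

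Markers of other cell types moved in the same libraries. Among primitive endoderm markers in the *Mettl14* KO 5 of the 6 tested rose, *Dab2* (2.06), *Gata4* (1.90), *Sox7* (1.77), *Pdgfra* (1.62) and *Gata6* (1.41), and *Lama1* fell (-1.52). In the *Mettl3* KO none rose, and *Sox7* (-1.24), *Pdgfra* (-0.97) and *Lama1* (-1.82) fell. *Lama1*, at 11274.0 and 11271.0 normalized counts in WT26, made up nearly all of the summed level of the 8, which was 11370.8 to 11380.7 in WT26, 4217.5 to 4269.9 in the *Mettl14* KO, 9959.8 to 10075.2 in RBC and 2907.9 to 2949.7 in the *Mettl3* KO. The other 7 summed to 99.8 to 106.7 in WT26 and 309.8 to 323.5 in the *Mettl14* KO, and to 164.4 to 175.5 in RBC and 120.9 to 147.1 in the *Mettl3* KO. Of 6 neuroectoderm markers tested, *Pax6* was called higher in both knockouts (1.96 and 1.21) and *Tubb3* lower in the *Mettl14* KO (-1.09). The neuroectoderm list summed to 945.9 to 970.6 in WT26 and, lower, to 847.3 to 858.3 in the *Mettl14* KO. It summed to 1451.9 to 1457.1 in RBC and, higher, to 1630.5 to 1687.1 in the *Mettl3* KO. Of 4 fibroblast markers tested, *Thy1* was called lower in both (-2.03 and -2.62) and *Col1a2* higher in the *Mettl3* KO (2.26), with sums of 121.2 to 129.1 in the controls and 54.6 to 78.6 in the knockouts. None of 3 trophoblast markers tested was called. Their list summed to 303.8 to 307.1 in WT26 and 362.4 to 376.6 in the *Mettl14* KO, and to 316.1 to 336.2 in RBC and 380.0 to 387.8 in the *Mettl3* KO. Early mesoderm markers summed to 31.5 to 64.1 normalized counts over 8 genes in all libraries, and *Dcn*, a fibroblast marker, was at 0 in all. The part of these cell types in the results on the 8 members was not tested.

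For each member the gene with the most similar profile over the 8 RNA-seq libraries, searched among 11872 genes whose mean reached 50 normalized counts and compared as log2 counts, was *Ap2s1* for *Nodal* (Pearson r = 0.996), *Plxna3* for *Lefty1* (0.996), *Rfx3* for *Lefty2* (0.997), *Arvcf* for *Smad7* (0.987), *Hydin* for *Bmp4* (0.998), *Itga5* for *Id1* (0.996), *Nop14* for *Id2* (0.986) and *Zbtb8b* for *Id3* (0.970). Within the 8, *Nodal* and *Bmp4* followed each other most closely after the *Lefty* genes (0.96), *Nodal* and *Bmp4* each had 0.90 with *Id1*, and *Id1* ran opposite to *Lefty1* (-0.91). With 4 lines of 2 libraries each, such values describe the order of the lines and no more.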

How the data were processed

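The authors deposited raw counts per gene for 8 nuclear RNA-seq libraries, and raw counts per gene and repeat subfamily for 16 MeRIP-seq libraries (49090 features). MeRIP-seq reads were trimmed with cutadapt 1.8.1, aligned to GRCm38 with STAR 2.6.0c and counted with TEtranscripts. For RNA-seq the submitters' processing notes name FastQC, cutadapt 1.8.1, STAR 2.6.0c and DESeq2 1.26.0, and the counting tool and strand setting are not given in the sources used here. Depth sets counting error, and the spread between replicates adds to it (common biological coefficient of variation 0.0625 in RNA-seq, 0.274 in MeRIP-seq). In RNA-seq the standard error was larger where counts were low, from 0.0649 for *Nodal* to 0.627 for *Id2* in the *Mettl14* KO.

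Genes under edgeR's filterByExpr were left out, counts were scaled by DESeq2 size factors, and all libraries of a table entered one edgeR 4.0.16 quasi-likelihood fit (R 4.3.3), with Benjamini-Hochberg adjustment over all tested features. Replicate ratios used a pseudocount of 1. DESeq2 1.42.0, other scalings, filters, blocks and leaving out each replicate were the alternatives. The script was tested on simulated counts. The numbers paired the MeRIP-seq libraries: same-numbered deviations from the line means correlated at 0.195 to 0.28 between input and IP of 1 line, which share their RNA, at 0.598 to 0.806 between IP of 2 lines and at 0.251 to 0.452 between input of 2 lines. Positions and sequences come from the GENCODE annotation and genome of GRCm38. The 8 genes and the lists were chosen with earlier results of these data known. Named beside the 8 are the targeted genes, listed genes called in RNA-seq or enriched in both controls (at most 6 per list), and the gene most like each member. A single gene was left out of the lists and is not reported here.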

Additional observations from a re-analysis of the deposited data

Results flagged for a closer look

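For 6 members the change from control to knockout differed between the knockouts, by edgeR's test of the difference itself (*Mettl3* KO less *Mettl14* KO, log2 scale), which 43.1% of all genes passed by adjusted p alone. It was -0.31 for *Nodal* (adjusted p = 0.0112), -0.75 for *Lefty2* (0.00225), 1.12 for *Smad7* (2.3e-06), -1.17 for *Bmp4* (1.62e-07), -1.30 for *Id1* (6.61e-04) and 1.39 for *Id3* (0.00524). For *Nodal*, *Bmp4* and *Id1* both knockouts were lower than their control and the *Mettl3* KO by more. *Lefty2* rose in both, and by less in the *Mettl3* KO, whose control RBC began 2.25 above WT26. *Smad7* was the member that passed the test in opposite directions. For *Id3* the 2 *Mettl3* KO libraries were at 43.5 and 80.6 normalized counts, on both sides of RBC. The knockouts differ in the gene, the parental line and the clone, and these cannot be told apart.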

How the results depend on the processing

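The RNA-seq calls of *Lefty1*, *Lefty2* and *Id1* in both knockouts, of *Id3* in the *Mettl14* KO and of *Bmp4* in the *Mettl3* KO held under every alternative run. Without each replicate in turn there were 4 and 4 members and 2262 to 2613 and 2066 to 2381 genes called in the *Mettl14* and *Mettl3* KO, 2 to 3 members and 1354 to 1607 genes in RBC against WT26, and 3 to 4 and 2173 to 2386 for the difference. The replicate number as a block gave 4, 4, 3 and 4 members, which changed no RNA-seq call. There the numbers share only a name, with correlations of mixed sign (-0.172 to 0.453). A minimum of 10 counts in every library, which tests fewer genes, gave 1321, 1243, 720 and 1546 genes in the 4 RNA-seq comparisons, and adjusted p alone 8933, 9089, 6607 and 7344, with 7 members in the *Mettl14* KO and 5 in RBC.

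Scaling by library size put the median of all genes at 0.15 in the *Mettl3* KO, -0.16 in RBC against WT26 and 0.18 in the difference, which turned the share of higher calls from 45.6% to 60.5%, from 54.0% to 40.9% and from 42.4% to 58.1%. It put *Bmp4* at -1 in the difference. In IP over input it put the median at 0.37 to 0.49, the enriched features at 5714, 5127, 5840 and 2525 (78.3%, 84.6%, 84.7% and 90.5% of calls, against 51.9%, 54.8%, 55.1% and 57.8%), and the members at 8 in RBC and 2 in the *Mettl3* KO. For the *Mettl3* KO input it put the median at 0.13 and moved the share of higher calls from 24.3% to 35%.

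Enrichment in the *Mettl3* KO was 569 features and 1 member, and 1123 and 2 with DESeq2, 1565 and 2 without filter, 1363 and 2 with the replicate number as a block, 1927 and 2 with that block set apart for input and IP (added after the data were seen), 1427 and 2 with its own libraries alone, and 0 members with the input and IP pair as a block. The strict filter left 3 members in RBC. Leaving out replicates gave 0 to 3349 features and 0 to 5 members in WT26, 0 to 2817 and 0 to 5 in the *Mettl14* KO, 0 to 3118 and 0 to 5 in RBC, and 0 to 633 and 0 to 2 in the *Mettl3* KO. Changes of enrichment stayed at 0 members throughout, and at 0 features without any replicate. Without filter 24 and 25 features passed in the *Mettl14* and *Mettl3* KO, 7 between the controls and 11 for the difference, and 1 passed in the *Mettl14* KO with DESeq2 and with each of the 3 blocks, and 1 for the difference with the block set apart.

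Input calls in the *Mettl14* KO went from 90 features and 0 members to 386 and 2 with DESeq2, 549 and 3 without filter, 48 with the strict filter, 358 and 2 with the number as a block, 851 and 3 with it set apart, and 634 and 3 with the compared libraries alone. Those of the *Mettl3* KO went from 169 and 0 to 428 and 3, 612 and 4, 86, 421 and 2, 967 and 4, and 948 and 4. Leaving out replicates gave 2 to 91 and 11 to 151 features, with 0 to 1 and 0 to 2 members. The cause of these moves was not tested.

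Values near 0 changed sign. By library size these were *Id2* in the *Mettl14* KO (-0.01), *Id3* in the *Mettl3* KO (0.11, with the median at 0.15), *Smad7* in RBC (-0.14, and 0.00 with TMM), *Lefty1* in the difference (0.04) and the enrichment change of *Id3* (-0.05). Input turned for *Bmp4* in the *Mettl14* KO with DESeq2 (0.00) and for *Id2* in the *Mettl3* KO with the blocks (-0.01 and 0.00). Leaving out 1 replicate at a time gave, in RNA-seq, -0.41 to 0.34 for *Id2* in the *Mettl14* KO, -0.52 to 0.37 for *Id3* in the *Mettl3* KO, -0.12 to 0.13 for *Smad7* and -0.28 to 0.02 for *Id1* in RBC, and -0.36 to 0.04 for *Lefty1* in the difference. The enrichment change in the *Mettl14* KO ran from -0.59 to 0.62 for *Nodal*, -0.26 to 0.72 for *Lefty1*, -0.11 to 0.41 for *Lefty2*, -0.46 to 0.72 for *Smad7* and -0.61 to 0.95 for *Bmp4*, with the values below 0 coming without WT26 replicate 1 or without *Mettl14* KO replicate 2. In the *Mettl3* KO it ran from -1.22 to 0.08 for *Bmp4*, -1.12 to 0.07 for *Id1*, -0.99 to 0.25 for *Id2* and -0.06 to 0.11 for *Id3*, above 0 for *Bmp4*, *Id1* and *Id2* without RBC replicate 2. Input ran from -0.50 to 0.38 for *Bmp4* in the *Mettl14* KO, and from -0.38 to 0.61 for *Id2* and -0.03 to 0.19 for *Smad7* in the *Mettl3* KO.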
